A study of Arabidopsis thaliana with 12 samples.

Results

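Expression of 10 genes of jasmonate synthesis and output was followed in *Arabidopsis thaliana* seedlings. The genes are a fixed list of loci with no threshold on their values, chosen with earlier results of these data known. They make up 10 of the 33557 genes in the deposited table. They are *LOX2* (AT3G45140), *AOS* (AT5G42650), *AOC1* (AT3G25760), *AOC2* (AT3G25770), *OPR3* (AT2G06050), *JMT* (AT1G19640), *MYC2* (AT1G32640), *VSP1* (AT5G24780), *VSP2* (AT5G24770) and *PDF1.2a* (AT5G44420). RNA-Seq was performed with 3 libraries of each of 4 genotypes in the Columbia background, grown without a stress treatment. These were wild type (WT), the homozygous T-DNA mutant *bli* (allele *bli-1*), and the homozygous double mutants *bli ire1a* and *bli ire1b*, so every mutant group carried the same *bli* allele. BLI (BLISTER) is a plant-specific protein that binds the Polycomb methyltransferase CLF, and IRE1A and IRE1B are sensors of unfolded protein in the endoplasmic reticulum (ER). Each mutant rests on a single T-DNA allele per gene, and the *ire1a* and *ire1b* single mutants were not analysed here. The labels give the seedlings an age of 12 days and the methods a later one, and how many seedlings went into a library is not given in the sources used here. The unit is FPKM, which scales the fragments on a transcript by its length and by the size of the library. The comparisons ask which of these genes differ between *bli* and WT, and which of the differences are also found when *IRE1A* or *IRE1B* is mutated as well.

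Jasmonates are lipid-derived hormones of wounding, defence, fertility and growth restraint. In the plastid a 13-lipoxygenase such as LOX2 oxidises linolenic acid, AOS and AOC turn the product into the cyclic precursor OPDA, and in the peroxisome OPR3 reduces OPDA before beta-oxidation yields jasmonic acid. JAR1 couples jasmonic acid to isoleucine, the COI1 receptor binds the conjugate and sends the JAZ repressors to degradation, and MYC2 and related factors then activate their targets. Leaf output is usually divided into a MYC branch, which includes the vegetative storage proteins VSP1 and VSP2, and an ERF branch shared with ethylene, which includes the defensin PDF1.2a.

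The libraries were first checked as a whole. *BLI* was at 16.8 to 17.7 FPKM in WT and at 8.94 to 13.4 FPKM in the 9 mutant libraries. *IRE1A* was at 4.45 to 5.68 FPKM in *bli ire1a* and at 15.0 FPKM or more elsewhere, and *IRE1B* was at 4.56 to 5.34 FPKM in *bli ire1b* and at 9.21 FPKM or more elsewhere, so each library matched its label. *IRE1A* was also higher in *bli* than in WT (log2 fold change 0.59 ± 0.09; here and below, ± after a log2 difference gives its SE). Low FPKM values fell on steps whose size gives the relative depth of the libraries, which ran from 0.932 to 1.81 times that of WT replicate 1, whereas the absolute depth is not held in FPKM. Tests were made with limma on log2(FPKM + 0.1), and a difference was called where the p, adjusted after Benjamini and Hochberg over all genes tested, did not exceed 0.05. Genes entered the tests if they averaged 0.5 FPKM or more, which left 20645. Of the 10 genes, 9 passed that minimum and *JMT* did not.

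The order of the levels on the FPKM scale shifted between genotypes. In WT *AOC2* had the highest mean (298 FPKM), followed by *LOX2*, *AOC1* and *AOS*, while *PDF1.2a*, at 36.0 FPKM, was seventh. In *bli* the order began with *LOX2* (835 FPKM), *AOC2* (631 FPKM) and *PDF1.2a* (361 FPKM). *AOC2* and *LOX2* came first in *bli ire1b* as well, at 531 and 515 FPKM, and with these standard deviations (6.66 and 50.9 FPKM) the pair did not differ beyond its spread. *VSP1* and *JMT* had the lowest means in every genotype, in that order.

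**Figure D1:**
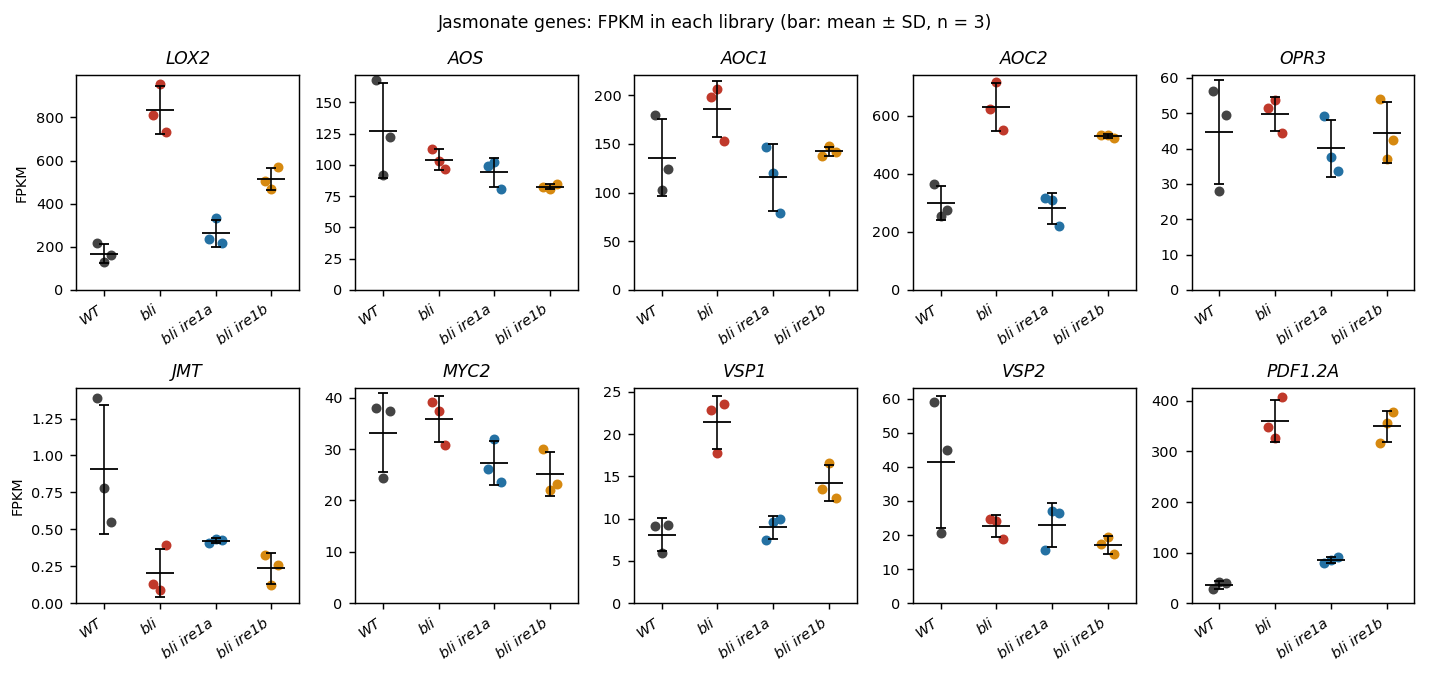
Level of each gene in FPKM (vertical axis, starting at 0) in the 3 libraries of each genotype (points, WT grey, *bli* red, *bli ire1a* blue, *bli ire1b* orange), with the mean and SD as a bar. *LOX2*, *AOC2*, *VSP1* and *PDF1.2a* are high in *bli* and *bli ire1b*, whereas *AOS*, *OPR3* and *MYC2* overlap between WT and *bli*.

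Comparing *bli* with WT, 4 of the 9 tested genes rose and 0 fell, where 17.3% of all tested genes were called higher and 17.0% lower. The 4 were *LOX2*, *AOC2*, *VSP1* and *PDF1.2a*. The fitted fold change was 10.11 for *PDF1.2a*, 5.04 for *LOX2*, 2.65 for *VSP1* and 2.13 for *AOC2*. At an unadjusted p under 0.05, *VSP2* was the fifth gene and its difference had the opposite sign. The share of all tested genes at that unadjusted threshold was not counted. In whole seedlings, more cells of a type and more RNA per cell cannot be told apart.

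In *bli ire1a*, 2 genes were higher than in WT (*LOX2* and *PDF1.2a*) and 0 were lower, against 7.17% of all genes called higher and 7.87% lower. With *IRE1B* mutated, *LOX2*, *AOC2*, *VSP1* and *PDF1.2a* were higher than in WT and *AOS* and *VSP2* were lower, so that 4 rose and 2 fell, against 19.1% and 20.1% of all genes. These comparisons share the WT libraries. Set against *bli*, the double mutant *bli ire1a* was lower in 4 genes, again *LOX2*, *AOC2*, *VSP1* and *PDF1.2a*, and higher in 0 (7.65% of all genes were called lower and 6.62% higher).

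The double mutant *bli ire1b* differed from *bli* in 0 of the 9 genes by limma at adjusted p (4.34% of all genes were called in either direction, 3.25% lower). *LOX2*, *VSP1* and *MYC2* were lower there at an unadjusted limma p under 0.05. The share of all tested genes at that threshold was not counted. Of the 10 genes, 6 had all 3 *bli ire1b* libraries below all 3 *bli* libraries (*LOX2*, *AOS*, *AOC1*, *AOC2*, *MYC2* and *VSP1*), where 14.8% of the tested genes showed the same lack of overlap. Between the double mutants, *bli ire1a* was the lower in 4 genes and the higher in 0, against 5.30% and 7.45% of all genes. Comparisons with *bli* share its libraries with that of *bli* against WT.

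**Figure D2:**
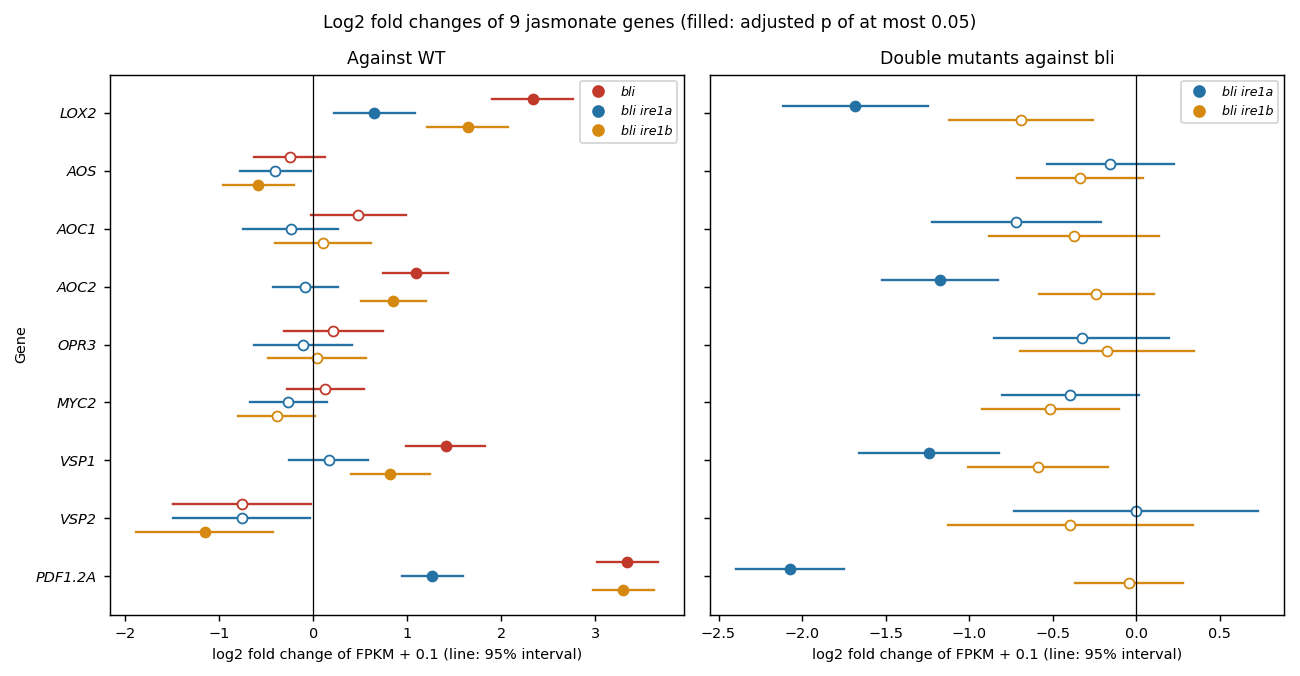
Log2 fold change of FPKM + 0.1 (horizontal axis) of the 9 tested genes, for the 3 mutants against WT (left) and the double mutants against *bli* (right), with 95% intervals as lines. Filled points passed an adjusted p of 0.05, and the 4 genes with filled points for *bli* on the left, *LOX2*, *AOC2*, *VSP1* and *PDF1.2a*, are also the 4 filled points on the right, all for *bli ire1a*.

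Several features of the samples moved with these results, and their part in them was not tested. All 6 leaf photosynthesis markers were lower in *bli* than in WT, and their summed level was 70358 to 77254 FPKM in WT, 49284 to 52994 in *bli*, 55103 to 61495 in *bli ire1a* and 48685 to 52828 in *bli ire1b*. Root markers summed to 59.6 to 79.3 FPKM in WT and 51.6 to 71.2 in *bli*, with 0 of 6 called, and to 47.5 to 67.1 in *bli ire1a* and 33.8 to 46.7 in *bli ire1b*, where 5 of 6 were below WT. Floral organ markers summed to 3.99 to 7.999 FPKM in WT, 35.2 to 37.9 in *bli*, 8.72 to 15.7 in *bli ire1a* and 24.8 to 28.3 in *bli ire1b*. Only *AP3*, *PI* and *SEP3* of the 6 reached the minimum, and all 3 were higher in *bli*. Most of the sum was *SEP3*, while the identity gene *AP1* was at 0.454 FPKM at most and was listed at 0 in 2 of 3 *bli* libraries. Of 8 clock genes, *CCA1*, *LHY* and *PRR9* were lower and *PRR5*, *TOC1* and *LUX* higher in both *bli* and *bli ire1b* than in WT, while *bli ire1a* was lower in *CCA1*, *LHY*, *PRR9* and *GI* and higher in *TOC1* and *LUX*. The clock genes summed to 229 to 255 FPKM in WT, 247 to 275 in *bli*, 175 to 209 in *bli ire1a* and 230.1 to 243 in *bli ire1b*. Genes that respond to touch and handling summed to 268 to 842 FPKM in WT, 882 to 936 in *bli*, 470 to 915 in *bli ire1a* and 517 to 606 in *bli ire1b*, and *TCH4* and *ZAT12* of the 6 were higher in *bli* than in WT, and both were lower when *bli ire1b* was set against *bli*.

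The WT libraries spread widely in these genes. WT replicate 1 was the highest WT library in 8 of the 10 genes and WT replicate 2 the lowest in 8, the exceptions for the latter being *JMT* and *PDF1.2a*, and in 6 of the 6 touch and handling genes, whose sum was 268 FPKM there against 573 and 842 FPKM in the other WT libraries. Without WT replicate 2, the 4 rises in *bli* remained called, and 2 genes were called lower in *bli* than in WT, *AOS* (log2 fold change -0.46, adjusted p = 0.0266 from limma) and *VSP2* (-1.20, adjusted p = 0.00383). *AOS* (-0.62, adjusted p = 0.0163) and *VSP2* (-1.20, adjusted p = 0.0109) were then also lower in *bli ire1a* than in WT, *MYC2* was lower in *bli ire1b* (-0.60, adjusted p = 0.0148), and *LOX2* in *bli ire1a* was not called. Without WT replicate 1, the 4 rises in *bli* were also called and *AOC1* joined them (0.70, adjusted p = 0.038), while *AOS* and *VSP2* lost their calls in *bli ire1b*, so that 0 of the 9 genes were lower there.

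**Figure D3:**
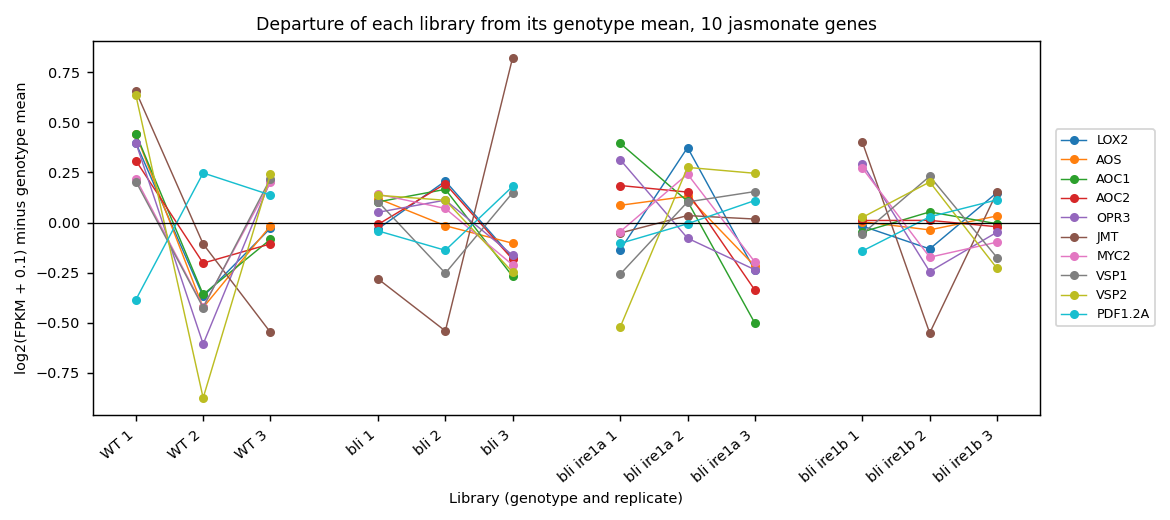
Departure of each library from the mean of its genotype, as log2(FPKM + 0.1) minus that mean (vertical axis), for the 10 genes (coloured lines) in the 12 libraries (horizontal axis). WT replicate 1 lies highest and WT replicate 2 lowest of the WT libraries in 8 genes each, and *JMT*, the gene with the lowest FPKM, spreads widely in WT, *bli* and *bli ire1b*.

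*LOX2* encodes the plastid 13-lipoxygenase that supplies most wound-induced jasmonate of leaves. It lies on chromosome 3 (TAIR10.1, chr3:16525245-16529352, forward strand) with 7 exons in its longest transcript. The 250 bases before its annotated start (chr3:16524995-16525244, forward strand) are shown because *LOX2* had the highest level in *bli*. Capitals mark a G-box variant (CACATG or CATGTG), a form that MYC factors bind, at 97 bases before the start. Of 27443 such windows of protein-coding genes, 11.1% hold this motif on either strand.
LOX2: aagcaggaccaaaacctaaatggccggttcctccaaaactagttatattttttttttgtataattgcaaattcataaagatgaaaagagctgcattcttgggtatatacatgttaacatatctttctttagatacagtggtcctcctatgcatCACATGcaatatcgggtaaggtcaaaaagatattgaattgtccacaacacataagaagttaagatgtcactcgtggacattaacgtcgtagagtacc

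*LOX2* stood at 217, 128 and 162 FPKM in the 3 WT libraries and at 812, 958 and 735 FPKM in *bli*. Every *bli* library was well clear of the highest WT library, and the log2 fold change was 2.33 ± 0.20 (SE, n = 3 per group; limma adjusted p = 9.31e-06). In *bli ire1a* the values were 235, 335 and 219 FPKM, just above the WT range and far below *bli*. The difference from *bli* was -1.68 ± 0.20 on the log2 scale (adjusted p = 0.000372), and the difference from WT was 0.65 ± 0.20 (adjusted p = 0.0468), which was above 0.05 in 14 of 22 alternative settings and stayed called on leaving out WT replicate 1 or *bli ire1a* replicate 3 but none of the other 10 libraries. In *bli ire1b* the values were 507, 469 and 569.7 FPKM, between WT and *bli* with no overlap with either. The gene was 1.64 ± 0.20 above WT there (adjusted p = 8.22e-05), whereas the log2 difference from *bli* was -0.69 ± 0.20, with an unadjusted p of 0.0047 and a limma adjusted p of 0.0745. That comparison passed with the 2 genotypes alone (limma adjusted p = 0.0412) and without WT replicate 1 (0.0432) or WT replicate 2 (0.0441).

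AOS is the allene oxide synthase, a cytochrome P450 of the plastid that acts on the product of LOX2. Its gene (chr5:17097564-17099595, reverse strand) has a single exon. It is the only 1 of the 10 with a perfect G-box (CACGTG) in the 250 bases before the start, a motif in 6.49% of all windows. The window (chr5:17099596-17099845, reverse strand) is shown for contrast with *LOX2*, with the G-box in capitals.
AOS: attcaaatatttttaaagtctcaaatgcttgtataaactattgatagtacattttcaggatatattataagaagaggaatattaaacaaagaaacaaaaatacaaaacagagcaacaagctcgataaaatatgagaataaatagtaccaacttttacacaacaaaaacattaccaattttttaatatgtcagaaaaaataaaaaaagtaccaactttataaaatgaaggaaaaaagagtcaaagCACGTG

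*AOS* was at 168, 92.2 and 122 FPKM in WT, 113, 103 and 96.9 in *bli*, 99.3, 102 and 80.5 in *bli ire1a*, with 82.7, 80.4 and 84.4 in *bli ire1b*. The WT libraries spread over the whole range of *bli*, and the log2 difference of *bli* from WT was -0.25 (95% interval -0.63 to 0.13). All *bli ire1b* libraries lay below all WT libraries. Among the 5 tested synthesis genes of the list (*LOX2*, *AOS*, *AOC1*, *AOC2* and *OPR3*), *AOS* alone fell in *bli ire1b*. The fall was 0.59 ± 0.17 on the log2 scale (limma adjusted p = 0.0194). It was not called with the 2 genotypes alone (adjusted p = 0.0719) or at the study cutoffs. Nor was it called without WT replicate 1 (0.0538) or *bli ire1b* replicate 2 (0.0536). Within each library, the ratio of *LOX2* to *AOS* was 1.29 to 1.38 in WT, 7.18 to 9.30 in *bli*, 2.37 to 3.27 in *bli ire1a* and 5.83 to 6.75 in *bli ire1b*, with no overlap between any pair of genotypes.

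The allene oxide cyclases make the optically pure OPDA precursor. *AOC1* (chr3:9403779-9405338), *AOC2* (chr3:9406669-9408071) and *AOC3* are tandem neighbours on the forward strand of chromosome 3, with 1330 bases between the first pair and 1088 bases between *AOC2* and *AOC3*. Aligned transcripts of *AOC1* and *AOC2* were 86.9% identical, and the longest run they shared was 47 bases. No stretch of 75 bases was shared. Their upstream windows, chr3:9403529-9403778 and chr3:9406419-9406668, are shown because the pair behaved differently in *bli*. Capitals mark the longest run common to both, 19 bases that end 99 bases before the annotated start of *AOC1* and directly before that of *AOC2*.
AOC1: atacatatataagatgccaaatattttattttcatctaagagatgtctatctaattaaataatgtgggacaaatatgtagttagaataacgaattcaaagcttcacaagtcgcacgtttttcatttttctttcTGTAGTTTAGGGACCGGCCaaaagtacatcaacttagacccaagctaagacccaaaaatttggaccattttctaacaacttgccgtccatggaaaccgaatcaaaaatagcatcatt
AOC2: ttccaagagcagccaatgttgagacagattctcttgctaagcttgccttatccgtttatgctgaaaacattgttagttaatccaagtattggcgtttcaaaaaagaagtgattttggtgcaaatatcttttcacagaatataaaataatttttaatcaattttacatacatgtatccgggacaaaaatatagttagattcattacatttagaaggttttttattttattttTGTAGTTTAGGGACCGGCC

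*AOC2* was at 365, 256 and 274 FPKM in WT and at 623, 717 and 552 in *bli*, where it rose by 1.09 ± 0.16 on the log2 scale (adjusted p = 0.000335). In *bli ire1a* it was at 315, 308 and 219.8 FPKM, overlapping WT (difference -0.09, 95% interval -0.43 to 0.26) and below *bli* (log2 difference -1.18 ± 0.16, adjusted p = 0.000827). In *bli ire1b* the libraries lay close together at 535, 535 and 523 FPKM, all above WT (0.85 ± 0.16, adjusted p = 0.00147) and all just under *bli*. The difference of *bli ire1b* from *bli* was -0.24 with a 95% interval of -0.58 to 0.11.

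*AOC1* was at 179.7, 103 and 125 FPKM in WT, 198, 207 and 153 in *bli*, 147, 120.5 and 79.0 in *bli ire1a*, with 138, 147 and 142 in *bli ire1b*. The genotypes overlapped except that *bli ire1a* and *bli ire1b* both lay below *bli*. The log2 difference of *bli* from WT was 0.48 (95% interval -0.03 to 0.98) and did not pass, although without WT replicate 1 it did (0.70, limma adjusted p = 0.038). Against *bli*, *bli ire1a* was at -0.72 ± 0.23 with limma adjusted p = 0.0609. That p came under 0.05 with the replicate number as a block (0.0369). It did so too without WT replicate 1 (0.0374), WT replicate 2 (0.0473) or *bli ire1a* replicate 1 (0.0334). The ratio of *AOC2* to *AOC1* within a library was 2.03 to 2.48 in WT and 2.14 to 2.78 in *bli ire1a*, with 3.15 to 3.61 in *bli* and 3.63 to 3.89 in *bli ire1b*.

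OPR3 (chr2:2359114-2362375, reverse strand) is the peroxisomal reductase of OPDA. *OPR3* showed 56.4, 28.0 and 49.4 FPKM in WT, 51.4, 53.7 and 44.3 in *bli*, 49.2, 37.5 and 33.6 in *bli ire1a*, with 53.9, 37.1 and 42.5 in *bli ire1b*. All genotypes overlapped. Its log2 difference from WT was 0.22 in *bli* (95% interval -0.31 to 0.74), -0.11 in *bli ire1a* (-0.63 to 0.41) and 0.04 in *bli ire1b* (-0.48 to 0.56), and none of the 3 passed.

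**Figure D4:**
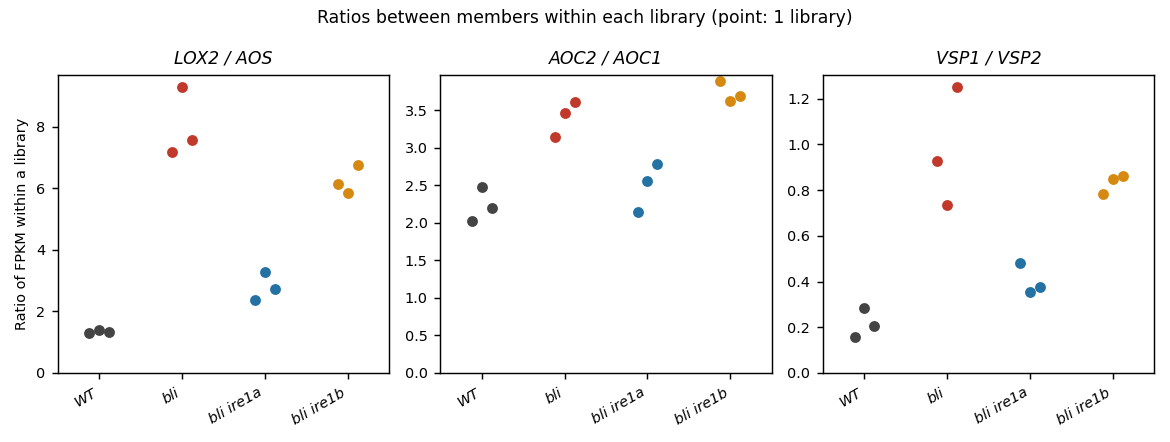
Ratio of FPKM between pairs of genes within each library (vertical axis, starting at 0; 1 point per library) by genotype. *LOX2* over *AOS* separates all 4 genotypes, whereas for *AOC2* over *AOC1* the WT and *bli ire1a* libraries (2.03 to 2.78) overlap below those of *bli* and *bli ire1b* (3.15 to 3.89).

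JMT (chr1:6788885-6791919, reverse strand) is the carboxyl methyltransferase that makes volatile methyl jasmonate. *JMT* was the least expressed of the 10 genes, at 1.39, 0.779 and 0.548 FPKM in WT, 0.129, 0.0914 and 0.392 in *bli*, 0.405, 0.437 and 0.430 in *bli ire1a*, with 0.328, 0.121 and 0.260 in *bli ire1b*. All mutant libraries were below all WT libraries, and all *bli ire1a* libraries were above those of *bli*. Divided by the step of their library, the values came out whole to within 0.0124 (tolerance 0.15), as 19, 17 and 13 steps in WT, 3, 2 and 5 in *bli*, 10, 7 and 7 in *bli ire1a*, with 5, 2 and 4 in *bli ire1b*, 94 in all. These are the smallest whole numbers within the tolerance, so the fragments behind them may be a multiple. Its mean of 0.443 FPKM was under the minimum, so it was not tested in the main comparisons. In the fit with no minimum it was lower than WT in *bli* (-1.77 ± 0.42 on the log2 scale, adjusted p = 0.00917) and in *bli ire1b* (-1.55 ± 0.42, adjusted p = 0.0161), and the difference in *bli ire1a* did not pass (-0.85 ± 0.42, adjusted p = 0.233).

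MYC2 is the basic helix-loop-helix factor that binds G-boxes and activates the MYC branch. *MYC2* (chr1:11798119-11801407, reverse strand) is overlapped over 3241 bases by AT1G32630 on the opposite strand, and whether counting used strand is not given in the sources used here, so *MYC2* is uncertain. Of the 75-base stretches of its transcript, 98.5% lie in AT1G32630 as well. AT1G32630 was at 7.27 to 10.3 FPKM in all libraries. *MYC2* stood at 37.9, 24.3 and 37.4 FPKM in WT, 39.3, 37.4 and 30.7 in *bli*, 26.2, 32.0 and 23.6 in *bli ire1a*, with 30.1, 22.1 and 23.3 in *bli ire1b*. The WT and *bli* libraries overlapped, with WT replicate 2 the lowest of the 6. The log2 difference of *bli* from WT was 0.13 (95% interval -0.28 to 0.54), and the corresponding values of the double mutants, *bli ire1a* first, were -0.27 (-0.68 to 0.14) and -0.39 (-0.80 to 0.02). All *bli ire1b* libraries were under those of *bli* (-0.51 ± 0.19, unadjusted p = 0.0183, limma adjusted p = 0.147).

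VSP1 and VSP2 are vegetative storage proteins with acid phosphatase activity, widely used as reporters of the MYC branch in leaves. Their genes are neighbours on the reverse strand of chromosome 5, *VSP2* at chr5:8500468-8502224 and *VSP1* at chr5:8507590-8509201, with 5365 bases between them. Aligned transcripts were 89.8% identical with a longest shared run of 54 bases, and no 75-base stretch was shared. The 250 bases before each start, chr5:8509202-8509451 and chr5:8502225-8502474 on the reverse strand, are shown because the paralogs moved in opposite directions in *bli ire1b*. Capitals mark their longest common run of 23 bases, which ends 120 bases before the start of *VSP1* and 54 before that of *VSP2*. Neither window holds a G-box, the CACATG variant or a GCC box.
VSP1: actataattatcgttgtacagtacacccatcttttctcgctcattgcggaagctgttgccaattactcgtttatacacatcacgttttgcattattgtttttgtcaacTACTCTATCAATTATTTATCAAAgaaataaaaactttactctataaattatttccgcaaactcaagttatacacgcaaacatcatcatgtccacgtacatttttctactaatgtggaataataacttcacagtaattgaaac
VSP2: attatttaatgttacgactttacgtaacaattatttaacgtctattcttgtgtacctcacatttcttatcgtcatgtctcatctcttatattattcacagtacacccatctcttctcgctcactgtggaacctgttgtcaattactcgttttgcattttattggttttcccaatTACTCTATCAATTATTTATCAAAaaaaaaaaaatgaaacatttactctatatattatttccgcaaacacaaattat

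*VSP1* was at 9.17, 5.90 and 9.27 FPKM in WT and at 22.8, 17.8 and 23.6 in *bli*, a rise of 1.41 ± 0.19 on the log2 scale (adjusted p = 0.000223) with no overlap. In *bli ire1a* it was at 7.45, 9.59 and 9.95 FPKM, overlapping WT (difference 0.17, 95% interval -0.25 to 0.59) and below *bli* (-1.24 ± 0.19, adjusted p = 0.00186). In *bli ire1b* it was at 13.6, 16.6 and 12.5 FPKM, between WT and *bli*. There it was above WT by 0.82 ± 0.19 (adjusted p = 0.00584), and its log2 difference from *bli* was -0.59 ± 0.19 (unadjusted p = 0.0104, limma adjusted p = 0.112, or 0.0491 without WT replicate 2).

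*VSP2* was at 59.0, 20.7 and 44.8 FPKM in WT, 24.6, 24.2 and 18.8 in *bli*, 15.5, 27.1 and 26.5 in *bli ire1a*, with 17.3, 19.6 and 14.5 in *bli ire1b*. A pair of WT libraries stood above all mutant libraries and WT replicate 2 lay among them. The log2 difference from WT was -0.76 ± 0.33 in *bli* (adjusted p = 0.102) and -0.76 ± 0.33 in *bli ire1a* (adjusted p = 0.152), and in *bli ire1b* it passed at -1.16 ± 0.33 (adjusted p = 0.0174). That call was lost with the 2 genotypes alone (limma adjusted p = 0.0608). It was also lost without WT replicate 1 (adjusted p = 0.0693), WT replicate 3 (0.061) or *bli ire1b* replicate 3 (0.0596). The ratio of *VSP1* to *VSP2* in a library was 0.156 to 0.286 in WT, 0.737 to 1.25 in *bli*, 0.355 to 0.480 in *bli ire1a* and 0.784 to 0.862 in *bli ire1b*.

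PDF1.2a is a plant defensin, a small secreted antifungal protein whose gene is a common reporter of the ERF branch. *PDF1.2a* (chr5:17906968-17907638, reverse strand, 2 exons) lies 1211 bases from its paralog *PDF1.2c*. Its upstream window (chr5:17907639-17907888, reverse strand) is shown because it had the largest rise of the 10 genes and, alone among them, a GCC box (GCCGCC), the core that ERF factors bind and which 1.87% of all windows hold. The GCC box starts 222 bases before the start and adjoins a CATGTG variant at 216 bases, and the capitals mark both.
PDF1.2a: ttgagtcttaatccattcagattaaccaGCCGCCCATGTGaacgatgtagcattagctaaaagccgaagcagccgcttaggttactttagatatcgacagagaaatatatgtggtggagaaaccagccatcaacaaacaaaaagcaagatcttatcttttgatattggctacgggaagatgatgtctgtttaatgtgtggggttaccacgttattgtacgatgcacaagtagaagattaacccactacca

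*PDF1.2a* was at 27.1, 42.0 and 38.9 FPKM in WT and at 349, 326 and 407 FPKM in *bli*, a rise of 3.34 ± 0.15 on the log2 scale (adjusted p = 9.11e-08). In *bli ire1a* it was at 79.4, 85.0 and 92.1 FPKM, above every WT library and far below every *bli* library. Both differences passed, the first at 1.27 ± 0.15 (adjusted p = 0.000486) and the second at -2.07 ± 0.15 (adjusted p = 1.16e-05). In *bli ire1b* it was at 316, 356 and 377 FPKM, overlapping *bli*, with a difference from *bli* of -0.04 (95% interval -0.36 to 0.28) and a rise over WT of 3.30 ± 0.15 (adjusted p = 1.3e-07). This was the 1 gene of the 4 raised in *bli* whose *bli ire1b* libraries reached the *bli* range.

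The paralogs *PDF1.3* and *PDF1.2c* were high in the same genotypes. *PDF1.3* was at 17.9 to 23.8 FPKM in WT, 368 to 497 in *bli*, 84.8 to 139 in *bli ire1a* and 343 to 416 in *bli ire1b*. *PDF1.2c* was at 4.42 to 7.64 FPKM in WT, 104 to 116 in *bli*, 16.8 to 32.2 in *bli ire1a* and 109.96 to 127 in *bli ire1b*. *PDF1.1*, by contrast, was at 0.640 to 2.67 FPKM in WT and 0.409 to 1.54 in *bli* and was not called. The log2 fold changes of *PDF1.3* and *PDF1.2c* in *bli* were 4.31 ± 0.18 (adjusted p = 7.11e-08) and 4.11 ± 0.23 (adjusted p = 5.43e-07). *PDF1.2a* and *PDF1.2c* transcripts were 87.4% identical with a longest shared run of 52 bases, and *PDF1.2a* and *PDF1.3* 86.5% with 39 bases, and no stretch of 75 bases was shared.

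Beyond the 10, 52 further jasmonate genes were listed by role, and 48 had a mean FPKM of at least 0.5. The lists were drawn up with earlier results of these data known, which limits what their shares beside those of all genes can show. In *bli*, 24 of the 48 were higher than in WT and 2 were lower (*JAR1* and *MYC4*), that is 50.0% and 4.17% of them beside 17.3% and 17.0% of all tested genes, with a median log2 fold change of 0.47 beside -0.01. Without WT replicate 2 the counts were 22 and 2. In *bli ire1a*, 9 were higher and 3 lower than in WT (18.8% and 6.25%, beside 7.17% and 7.87% of all genes; 8 and 3 without that library), and in *bli ire1b*, 22 were higher and 4 lower (45.8% and 8.33%, beside 19.1% and 20.1%; 20 and 4). The lower counts were thus near or under the share of all genes. Against *bli*, 15 were lower and 0 higher in *bli ire1a* (9 and 0 without *bli* replicate 2), the 15 being 31.2% of them beside 7.65% of all genes. In *bli ire1b* against *bli*, 3 were called, 2 of them lower, or 6.25% beside 4.34% of all genes. Between the double mutants, *bli ire1a* was the lower in 8 (16.7% beside 5.30%) and the higher in 0.

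**Figure D5:**
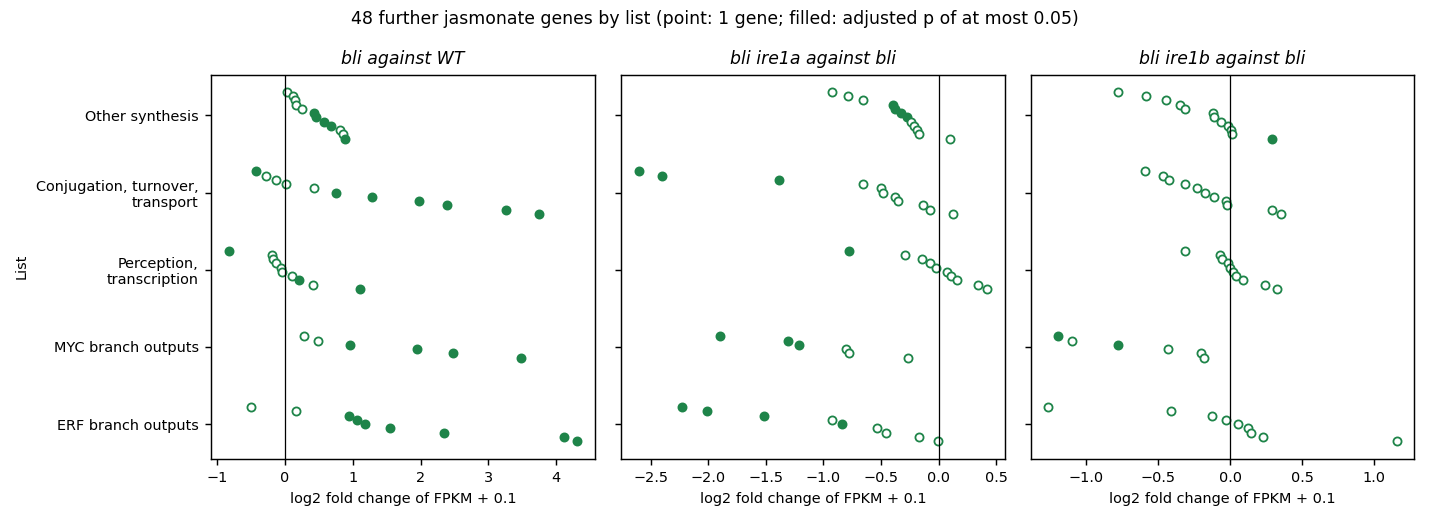
Log2 fold change of FPKM + 0.1 (horizontal axis) of 48 further jasmonate genes in 5 lists (vertical axis; 1 point per gene, filled where adjusted p was at most 0.05) for *bli* against WT, *bli ire1a* against *bli* and *bli ire1b* against *bli*. In *bli* 24 points are filled on the higher side, in *bli ire1a* 15 on the lower side, and in *bli ire1b* 3 in all.

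Among 12 other tested synthesis genes, which include further lipoxygenase and cyclase isoforms, 5 rose in *bli* and 0 fell. They were *OPCL1*, which activates the precursor as a CoA ester, and the peroxisomal beta-oxidation genes *ACX1*, *AIM1*, *MFP2* and *KAT2*, with log2 fold changes of 0.42 to 0.89 (chosen for naming after their values were seen, as were the genes of other short counts here). Beta-oxidation genes also break down other fatty acids. *AOC4* fell in *bli ire1a* against WT (-0.35 ± 0.09, adjusted p = 0.0265), a call lost with the 2 genotypes alone and without WT replicate 1 or *bli ire1a* replicate 3. *LOX6* was the 1 further gene higher in *bli ire1b* than in *bli* (0.29 ± 0.06, adjusted p = 0.0268), and this call was lost with the 2 genotypes alone, without any of the *bli* libraries and without *bli ire1b* replicate 2 or 3. Of 11 tested genes of conjugation, turnover and transport, 6 rose in *bli* and 1 fell.

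The largest rises of the turnover list were in the jasmonate oxidases, which hydroxylate jasmonic acid and so inactivate it. *JOX3* was at 0.346 to 0.449 FPKM in WT, 5.11 to 8.05 in *bli*, 0.768 to 1.31 in *bli ire1a* and 3.95 to 9.94 in *bli ire1b*. *JOX4* was at 0.227 to 0.522 FPKM in WT, 3.60 to 5.72 in *bli*, 0.541 to 0.990 in *bli ire1a* and 4.59 to 7.10 in *bli ire1b*. In *bli* both lay wholly above WT, with *JOX3* at 3.74 ± 0.32 on the log2 scale (adjusted p = 9.31e-06), and in *bli ire1a* they were below *bli*, *JOX3* by -2.60 ± 0.32 (adjusted p = 0.000477) and *JOX4* by -2.40 ± 0.31 (adjusted p = 0.000663). *JAR1*, the conjugating enzyme, was the gene that fell, to 32.9 to 39.8 FPKM in *bli* from 38.3 to 56.4 in WT, with a log2 difference from WT of -0.43 ± 0.13. The difference was -0.51 ± 0.13 for *bli ire1a* (limma adjusted p = 0.0245) and -0.66 ± 0.13 for *bli ire1b* (0.00228). The call in *bli ire1a* was lost with the 2 genotypes alone and without WT replicate 1 or *bli ire1a* replicate 3. Without *bli ire1a* replicate 1 only 1 further gene was called lower there. *JAR1*, *AOC4* and *CLH1* thus did not all keep their calls in that setting. In *bli*, only 1 further gene was called lower with the 2 genotypes alone, or without WT replicate 1 or 3 or *bli* replicate 2 or 3. At least 1 of *JAR1* and *MYC4* was thus not called there. The *bli* and WT ranges of *JAR1* overlapped at WT replicate 2.

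Of 10 genes of perception and transcription, 2 rose in *bli* (*JAV1*, a repressor of defence, and the corepressor gene *TPL*) and *MYC4* fell (-0.83 ± 0.15, adjusted p = 0.00138), shares near those of all tested genes (17.3% higher and 17.0% lower). *MYC4*, a close relative of *MYC2*, was at 9.16 to 13.8 FPKM in WT and 5.63 to 7.42 FPKM in *bli*, with no overlap, and was also lower in *bli ire1b* (-0.50 ± 0.15, adjusted p = 0.0205). The receptor gene *COI1* was at 17.6 to 19.1 FPKM in WT and was lower in *bli ire1b*, at 15.1 to 15.4 FPKM (-0.25 ± 0.08, adjusted p = 0.0297). The 4 further genes lower in *bli ire1b* than in WT became 2 with the 2 genotypes alone or without *bli ire1b* replicate 1. Without WT replicate 1 or *bli ire1b* replicate 2 only 1 was called, so *MYC4* and *COI1* did not both keep their calls there. Among 6 tested MYC branch outputs, *TAT3*, *CORI3*, *ANAC019* and *ANAC055* rose in *bli*, by 0.96 to 3.48 on the log2 scale, and 0 fell. *CLH1*, a chlorophyllase gene, was at 47.1 to 78.7 FPKM in WT, 65.3 to 97.7 in *bli*, 32.5 to 38.9 in *bli ire1a* and 45.8 to 51.9 in *bli ire1b*. It fell in *bli ire1a* against WT (-0.72 ± 0.18, adjusted p = 0.0226). That call was lost with the 2 genotypes alone and without WT replicate 1 or *bli ire1a* replicate 3. *CLH1* and *ANAC055* were the 2 further genes lower in *bli ire1b* than in *bli*, at -0.78 ± 0.18 and -1.20 ± 0.28. Both calls were lost with no minimum, with no variance trend, and without *bli* replicate 1 or 2, *bli ire1a* replicate 2 or any *bli ire1b* library. Among 9 ERF branch outputs, 7 rose in *bli* and 0 fell. They included the transcription factor genes *ERF1*, *ORA59* and *ERF2*, at log2 fold changes of 1.06 to 1.55. *ORA59* was at 5.01 to 7.11 FPKM in WT, 12.7 to 15.1 in *bli* and 12.0 to 12.3 in *bli ire1a*. *ERF2* was at 22.3 to 37.5 FPKM in WT, 59.5 to 68.7 in *bli* and 39.6 to 56.5 in *bli ire1a*. *ERF1* was at 0.265 to 0.704 FPKM in WT, 1.21 to 1.91 in *bli* and 0.392 to 1.07 in *bli ire1a*.

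*AOS* and *VSP2*, the tested members that fell in *bli ire1b* in the main comparison, were compared with all genes of mean FPKM of at least 1 for the likeness of their pattern. This was the root mean square distance between levels standardized over the 12 libraries, among 19299 other genes. The nearest to *AOS* were *TIR* (AT1G72930, 0.292), AT3G08030 (0.334), AT3G46450 (0.341), AT4G02410 (0.342) and AT1G65490 (0.343). The nearest to *VSP2* were AT3G54390 (0.332), AT1G03340 (0.358), AT1G15060 (0.369), AT4G00270 (0.408) and AT2G33255 (0.413). None of the 10 genes was among them. The distance takes in the spread between replicates as well as genotype. In all the near genes named, as in *AOS* and *VSP2*, WT replicate 2 was the lowest WT library. The likeness is therefore not one of genotype alone.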

How the data were processed

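Reads were trimmed by the authors (SeqPrep, Sickle), mapped with TopHat on TAIR10 and compared with Cuffdiff, and the table of FPKM per gene and library that they deposited was the only file used. The submitters' processing notes name Bowtie 0.12.2 and the build mm8, a mouse build that contradicts the methods, and the program that wrote the FPKM is not given in the sources used here. Libraries were assigned to genotypes from their labels, and the columns left out numbered 0. The methods call the replicates biological.

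From the FPKM, log2(FPKM + 0.1) was fitted with limma 3.58.1 in R 4.3.3 (lmFit, eBayes with a mean-variance trend, two-sided, all 4 genotypes in a single model with 8 residual degrees of freedom) on 20645 of 33557 genes, those averaging 0.5 FPKM or more, with Benjamini-Hochberg adjustment over them. A fold change on this scale understates that of low genes. An exact permutation test of 3 against 3 libraries has a smallest p of 0.1, so it could not pass 0.05. The 22 alternatives were pseudocounts of 1 and 0.01, no minimum, a minimum of 1, only the 2 genotypes compared, the replicate number as a block, the cutoffs of the study (fold change of 2 or 0.5 and unadjusted p of 0.05), upper-quartile and quantile scaling, omission of the variance trend, and omission of any 1 of the 12 libraries; applying them to the further lists was chosen after seeing the data. Relative depth came from the most frequent ratio to WT replicate 1 among genes of mean FPKM under 0.15. On simulated data for *bli* against WT (20425 genes), 82 of 100 genes changed by log2 1 and 94 of 100 by log2 2 were called, as were 9 unchanged genes. The simulation changed only these 200 genes, drawn from the better expressed ones, in *bli* alone. Its noise was normal and independent between genes, with no shift shared within a library, so these rates may not hold for the real data.

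The members and lists were chosen with earlier results of these data known. All 10 members were named, and from the further lists the 3 largest rises and falls in each comparison with WT and each of a double mutant with *bli*, at adjusted p up to 0.05, among genes averaging 1 FPKM or more whose groups did not overlap. Names, coordinates and sequences came from RefSeq TAIR10.1, which 32810 identifiers (97.8%) and all 10 members matched.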

Additional observations from a re-analysis of the deposited data

Results flagged for a closer look

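The double mutants, which differ in whether *IRE1A* or *IRE1B* is mutated beside *bli*, were compared with each other, and 4 of the 9 tested genes differed. *PDF1.2a* was at -2.03 ± 0.15 (SE) on the log2 scale in *bli ire1a* against *bli ire1b* (limma adjusted p = 2.36e-05), with 79.4 to 92.1 FPKM against 316 to 377. *LOX2* was at -0.99 ± 0.20 (adjusted p = 0.00833), with 219 to 335 FPKM against 469 to 569.7, and *AOC2* at -0.94 ± 0.16 (adjusted p = 0.00363), with 219.8 to 315 against 523 to 535. *VSP1* was at -0.65 ± 0.19 (adjusted p = 0.0459), with 7.45 to 9.95 FPKM against 12.5 to 16.6. For each of the 4, all 3 *bli ire1a* libraries lay below all 3 *bli ire1b* libraries. *PDF1.2a*, *LOX2* and *AOC2* had adjusted p under 0.05 in all 22 alternatives, whereas *VSP1* was above 0.05 in 12 of them, up to 0.142. The study cutoffs are 1 of the 22 and reuse the main fit, so the adjusted p there is the main value. By their own rule only *PDF1.2a* kept its call, and *LOX2*, *AOC2* and *VSP1* lost theirs.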

How the results depend on the processing

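The rises of *LOX2*, *AOC2*, *VSP1* and *PDF1.2a* in *bli* and the falls of these 4 in *bli ire1a* against *bli* kept an adjusted p under 0.05 in all 22 alternatives. Over 54 log2 differences of members, 1115 of 1188 alternative values kept direction and side of the threshold, 40 lost a call, 14 gained one and 19 changed sign, with no call in either. Whether replicate numbers pair the libraries is not settled by their correlations. The 18 same-numbered pairs correlated weakly, at -0.108 to 0.0881, and 6 of 12 libraries correlated best with their own number. Among the mutant genotypes every same-numbered pair was positive (0.0261 to 0.0881). With the replicate block, 1 member was higher in *bli ire1a* than in WT (*LOX2* was lost, adjusted p = 0.0689), 5 were lower in *bli ire1a* against *bli* (*AOC1* was gained, 0.0369), 3 were lower in *bli ire1a* against *bli ire1b* (*VSP1* was lost, 0.0633), and 1 further gene was lower in *bli ire1b* against *bli*. Members higher in *bli ire1a* than in WT were also 1 with no minimum, with the 2 genotypes alone, at the study cutoffs and with no trend, and 1 to 2 without a library. Members lower than WT were 1 in *bli* with no minimum (*JMT*) and 0 to 2 without a library, 0 to 2 in *bli ire1a* without a library, and in *bli ire1b* 0 with the 2 genotypes alone, 1 at the study cutoffs and 0 to 3 without a library. The study cutoffs left 2 members higher in *bli ire1b* than in WT and 1 lower in *bli ire1a* against *bli ire1b*. In *bli ire1b* against *bli*, 1 member was lower with the 2 genotypes alone and 0 to 2 without a library.

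Among the further genes, the study cutoffs gave 15 higher and 0 lower in *bli*, 0 lower in *bli ire1a*, 10 higher and 0 lower in *bli ire1b*, each against WT, and 9 lower in *bli ire1a* against *bli*. With the 2 genotypes alone, 1, 0 and 2 were lower than WT in *bli*, *bli ire1a* and *bli ire1b*, and in *bli ire1b* against *bli* 0 were higher and 1 lower. In *bli ire1a* against *bli*, 2 were higher with upper-quartile and 1 with quantile scaling, and without a library 0 to 1 were higher and 9 to 19 lower, the 9 without *bli* replicate 2. In *bli ire1b* against *bli*, 0 were lower with no minimum or no trend and 1 with quantile scaling, and without a library 0 to 1 were higher and 0 to 2 lower. Lower than WT without a library were 1 to 3 in *bli* (1 without WT replicate 1 or 3 or *bli* replicate 2 or 3). In *bli ire1a* they were 0 to 3 (0 without WT replicate 1 or *bli ire1a* replicate 3, and 1 without *bli ire1a* replicate 1). In *bli ire1b* they were 1 to 5 (1 without WT replicate 1 or *bli ire1b* replicate 2).

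Sign changes came mainly on leaving out a library, over which the log2 difference from WT ran from -0.437 to 0.0109 for *AOC1* and -0.188 to 0.0818 for *AOC2* in *bli ire1a*, -0.0746 to 0.326 for *AOC1* in *bli ire1b*, -0.0465 to 0.294 for *VSP1* in *bli ire1a* and -0.0813 to 0.2385 for *MYC2* in *bli*. For *OPR3* it ran from -0.0878 to 0.4145 in *bli*, -0.415 to 0.0878 in *bli ire1a* and -0.263 to 0.239 in *bli ire1b*. Against *bli*, *VSP2* in *bli ire1a* ran from -0.140 to 0.2585 (0.0437 with upper-quartile and 0.0358 with quantile scaling) and *PDF1.2a* in *bli ire1b* from -0.111 to 0.0484, and *MYC2* in *bli ire1a* against *bli ire1b* from -0.00165 to 0.255. The cause was not tested. Upper-quartile scaling moved the higher share of all calls from 46.4% to 58.9% in *bli ire1a* against *bli*, and from 25.3% to 36.3% in *bli ire1b* against *bli* (35.9% with quantile scaling). The median log2 difference of all genes ran from -0.0532 to 0.0629 under both. The FPKM of *JMT* amounts to only 2 to 19 steps a library, and 3 libraries a genotype limit the size of difference that could be detected.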
